A study of Homo sapiens with 31 samples.

Results

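The epidermal growth factor (EGF) receptor family and its ligands were described in Caco-2 cells. This human line comes from a colorectal adenocarcinoma and, once confluent, differentiates into a polarised layer with enterocyte features. The genes sought were 8, the ligands EREG, HBEGF, TGFA, BTC and AREG and the receptors EGFR, ERBB2 and ERBB3. A gene was taken from a row of the array table that named it and no other gene, and this gave 6 of the 8, among 22395 genes with a row of their own. AREG had no row under that name in the probe annotation, and the row of ERBB2 also named MIR4728, so neither was analysed here.

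EGF-like ligands are made as membrane-anchored precursors and are released by metalloproteases of the ADAM family. They bind ErbB receptor tyrosine kinases, which dimerise and signal through adaptors to the Ras-ERK pathway. In the intestinal epithelium this system is known for its part in proliferation, migration and repair of the cell layer, and ERK output genes such as dual-specificity phosphatases act back on the pathway as inhibitors.

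All cells were of the same line and were kept for 21 days, either in a microfluidic gut-on-chip perfused at 100 µL/h or without flow on Transwell inserts. For the last 6 h they received nanomaterial of titanium dioxide (TiO2) or of zinc oxide (ZnO), or a dispersion medium without metal. Each material had such a medium of its own, called TiO2-control and ZnO-control, and the chip flow was stopped during the exposure. The chip groups were 100 µg/mL TiO2, TiO2-control, 80 µg/mL ZnO and ZnO-control, with 4 arrays each. The Transwell groups were 50 µg/mL TiO2 (3 arrays), TiO2-control, 10 µg/mL ZnO and ZnO-control (4 arrays each). The concentrations differed between the systems because they had been modelled to deposit equal doses on the cells, so values of exposed chip and Transwell cultures are set side by side at unequal nominal doses. Because 1 carcinoma line stands for the epithelium, other cell types of the intestine were not represented. The labels do not say whether replicates came from separate cultures, and p-values therefore measure only the spread between these samples.

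Values were log2 expression after RMA, with medians of 3.243 to 3.333 per array over all rows. No background signal was used, so a gene below the median of an array was not shown to be expressed there. The epithelial markers EPCAM and CDH1 averaged 11.62 and 12.17 in chip control cultures, against 11.58 and 12.05 in Transwell control cultures. Of 12 Caco-2 and enterocyte markers 11 were above the array median on all 31 arrays. Of 11 measured markers of fibroblasts, endothelium and immune cells 4 were, namely CD68 (10.3 to 11.82), LUM (5.43 to 8.09), COL1A1 (4.8 to 7.05) and CD14 (4.94 to 6.73). The endothelial markers CDH5 and VWF were above the array median on 26 and 10 arrays and ACTA2 on 1. COL1A2, DCN, PTPRC and CD3E were above it on 0 arrays. One array in each of a pair of chip groups stood apart from its label. Each array was set against the exposed-minus-control profile of the other arrays, across genes other than the members. The array labelled chip TiO2 replicate 4 correlated at -0.27, against 0.06 to 0.13 for the other chip TiO2 arrays. The array labelled chip TiO2-control replicate 4 correlated at 0.18, against -0.07 to -0.04 for its group. In the chip ZnO set and both Transwell sets exposed arrays correlated at -0.13 to 0.09 and control arrays at -0.07 to 0.11. Several of those also had a sign against their label, by smaller amounts. Chip against Transwell, the chip response to TiO2 and the control media in the chip are given with and without both replicate 4 arrays.

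The upstream sequence is shown for the 3 members whose level separated the culture systems most clearly, so that the regions from which they are transcribed can be seen beside their values. RefSeq promoter windows (GRCh38.p14) were found for 5 of the 6 measured members, and the 250 bases before the annotated start are printed 5′ to 3′ on the strand of the gene. Capitals mark matches on either strand to the core of the cAMP response element (TGACG), an AP-1 site (TGANTCA), a TEAD site (CATTCC) or the CArG box of serum response factor. Among 35116 windows of the same length 21.2%, 6.57%, 11.9% and 1.16% held these motifs in that order. The windows were chr4:74364895-74365144 (plus strand) for EREG, chr5:140346604-140346853 (minus strand) for HBEGF, and chr7:55018767-55019016 and chr7:55109589-55109838 (plus strand) for the 2 annotated starts of EGFR.
EREG: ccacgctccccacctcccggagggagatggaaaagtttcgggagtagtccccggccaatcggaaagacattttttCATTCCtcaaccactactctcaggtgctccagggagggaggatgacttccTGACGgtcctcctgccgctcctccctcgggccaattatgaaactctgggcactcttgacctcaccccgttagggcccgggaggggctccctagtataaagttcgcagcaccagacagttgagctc
HBEGF: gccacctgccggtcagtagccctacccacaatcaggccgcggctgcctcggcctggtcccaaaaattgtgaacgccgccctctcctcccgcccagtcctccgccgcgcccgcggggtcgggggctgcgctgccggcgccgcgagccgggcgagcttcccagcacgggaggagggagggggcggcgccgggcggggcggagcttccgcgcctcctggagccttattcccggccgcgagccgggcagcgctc
EGFR, start 1: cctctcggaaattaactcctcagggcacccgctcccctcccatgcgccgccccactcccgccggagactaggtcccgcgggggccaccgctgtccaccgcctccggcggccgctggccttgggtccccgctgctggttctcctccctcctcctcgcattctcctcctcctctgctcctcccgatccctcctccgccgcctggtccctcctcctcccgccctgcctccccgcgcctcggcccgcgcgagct
EGFR, start 2: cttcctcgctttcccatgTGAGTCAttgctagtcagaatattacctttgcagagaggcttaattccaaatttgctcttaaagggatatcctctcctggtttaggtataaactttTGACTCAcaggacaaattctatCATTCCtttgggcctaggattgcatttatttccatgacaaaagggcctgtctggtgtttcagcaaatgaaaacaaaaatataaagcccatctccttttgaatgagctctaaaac
The EREG window held 1 TEAD match, 175 to 170 bases before the start, and 1 cAMP response element core at 125 to 121 bases. The HBEGF window and the first EGFR window held 0 matches and were rich in G and C, at 76.4% and 73.6%, against a median of 58% over all windows. The second EGFR window, at 38.8% G and C, held AP-1 matches at 232 to 226 and at 136 to 130 bases and a TEAD match at 114 to 109 bases before its start. The array row does not tell the starts of EGFR apart. A match describes letters in the window and was not tested for binding.

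EREG, HBEGF and EGFR were all higher in chip than in Transwell cultures in every medium, by 3.17-fold, 4.25-fold and 1.84-fold on average over both control media, while TGFA, BTC and ERBB3 did not pass over those media. A gene passed when its Benjamini-Hochberg adjusted p from limma, over all 22395 genes, was below 0.05. Of the 6 members 3 passed as higher and 0 as lower. The background was high, since 33.5% of all genes passed in this comparison, 14.6% as higher and 18.9% as lower. The median log2 difference was 0.59 over the members and 0 over all genes. Without both arrays that stood apart the log2 differences over both control media were 1.75 for EREG, 2.08 for HBEGF and 0.87 for EGFR, and all 3 passed (limma, adjusted p = 2.25e-13, 4.04e-12 and 6.45e-10). RNA came from whole cultures, so fewer cells with a transcript and less of it per cell cannot be told apart.

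**Figure D1:**
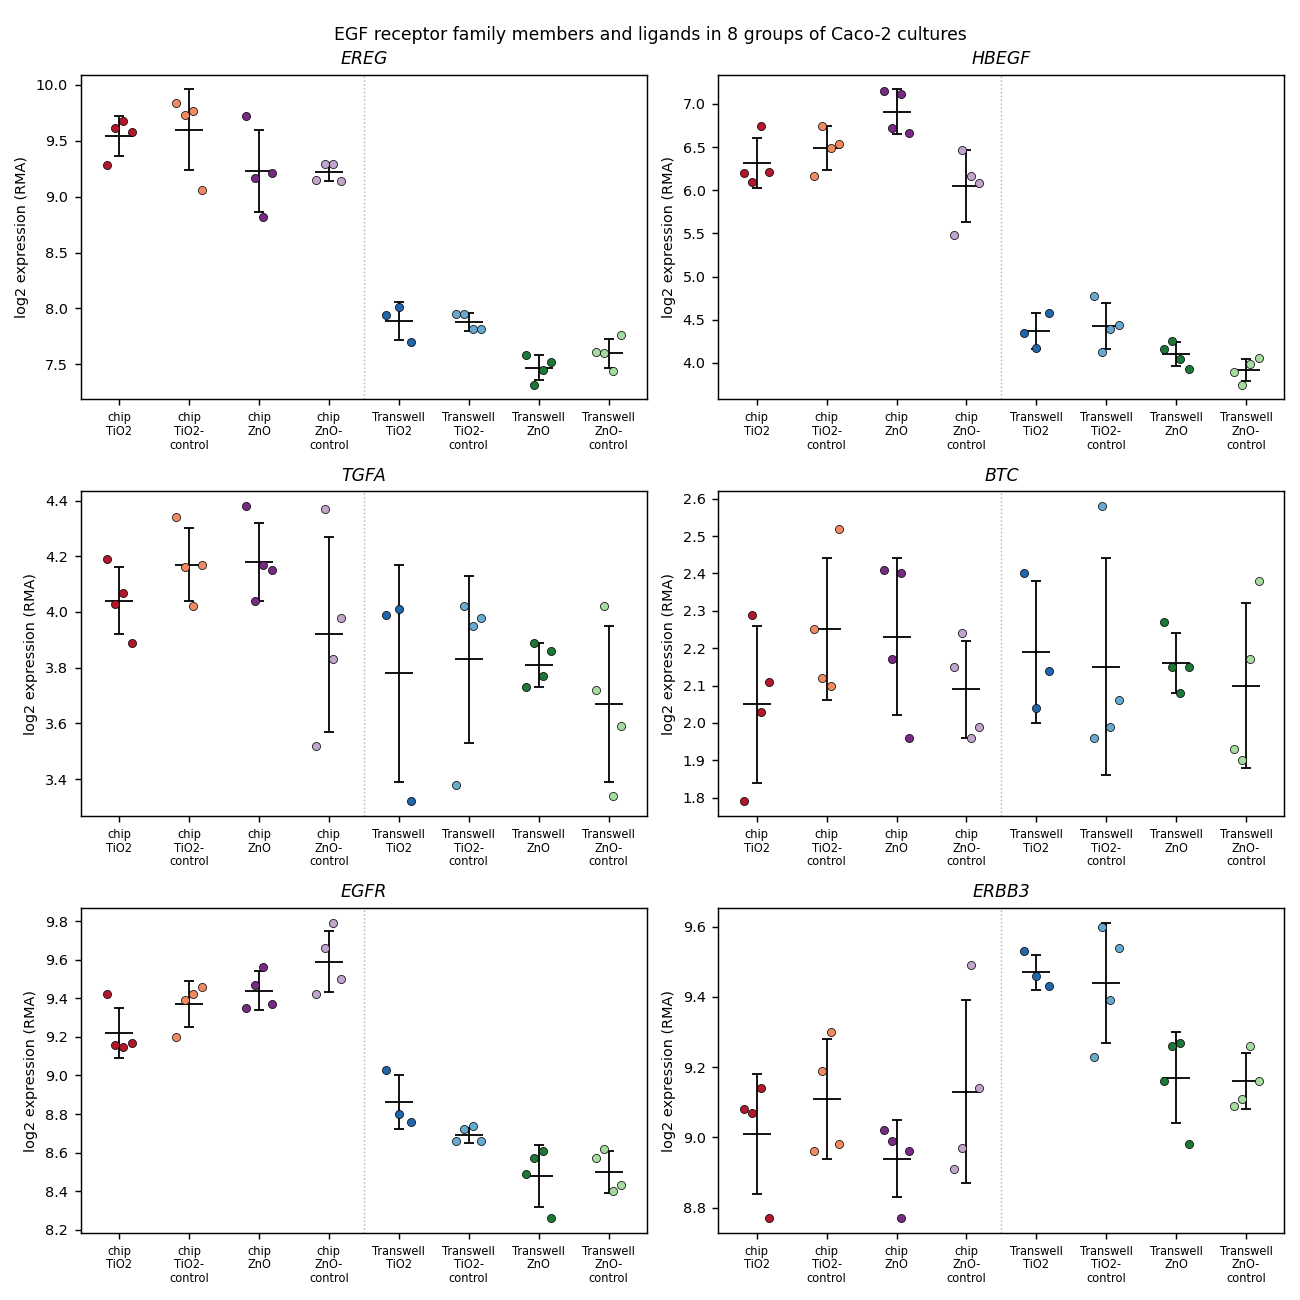
Log2 expression (RMA) of the 6 measured members on each array, with 1 panel per gene and 1 column per group. Points are arrays, horizontal marks group means and bars SD (n = 4, or n = 3 for Transwell TiO2). The 16 chip arrays lie above the 15 Transwell arrays without overlap for EREG, HBEGF and EGFR, and the arrays of both systems mix for TGFA, BTC and ERBB3. The share of all genes without such overlap was not counted. Between the systems 33.5% of all genes passed over both control media.

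EREG encodes epiregulin, a ligand that binds EGFR and ERBB4. Its log2 values in TiO2-control medium were 9.84, 9.73, 9.77 and 9.06 in the chip, against 7.95, 7.95, 7.82 and 7.82 on Transwell. In ZnO-control medium they were 9.15, 9.29, 9.29 and 9.14 in the chip, against 7.61, 7.60, 7.44 and 7.76 on Transwell. Chip and Transwell arrays did not overlap in either medium, and the lowest chip value belonged to the TiO2-control array that stood apart. The log2 difference over both control media was 1.66 ± 0.11 (SE; limma, adjusted p = 8.43e-13). By medium it was 1.72 ± 0.15 in TiO2-control and 1.61 ± 0.15 in ZnO-control (limma, adjusted p = 2.52e-09 and 3.2e-09).

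EREG was also higher in chip than in Transwell cultures after either exposure. After TiO2 its log2 values were 9.28, 9.61, 9.68 and 9.58 in the chip, against 7.94, 8.01 and 7.70 on Transwell. After ZnO they were 9.72, 9.17, 8.82 and 9.21 in the chip, against 7.58, 7.32, 7.45 and 7.52 on Transwell. Neither pair of groups overlapped, and the differences, at unequal nominal doses, were 1.65 ± 0.17 and 1.76 ± 0.15 (limma, adjusted p = 2.56e-08 and 5.02e-10). Ordered by mean, the 8 groups ran from chip TiO2-control (9.60 ± 0.36, SD) to Transwell ZnO (7.47 ± 0.11). Neighbours in that order overlapped except at the step of 1.33 between chip ZnO-control and Transwell TiO2 and the step of 0.28 between the Transwell control media. Over all arrays EREG ranged from 8.82 to 9.84 in the chip and from 7.32 to 8.01 on Transwell.

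HBEGF encodes heparin-binding EGF-like growth factor, a ligand of EGFR and ERBB4 that is induced early in wounded or stressed epithelia. In TiO2-control medium its log2 values were 6.16, 6.75, 6.49 and 6.54 in the chip, against 4.78, 4.13, 4.39 and 4.44 on Transwell. In ZnO-control medium they were 5.48, 6.47, 6.16 and 6.08 in the chip, against 3.90, 3.75, 3.99 and 4.06 on Transwell. The lowest chip array lay above the highest Transwell array in both media. HBEGF had the widest separation among the members, with a log2 difference of 2.09 ± 0.13 over both control media (limma, adjusted p = 2.26e-13), 2.05 ± 0.18 in TiO2-control medium and 2.12 ± 0.18 in ZnO-control medium. On Transwell it was a dim gene, above the median of all named genes on 4 of 15 arrays, whereas in the chip it was above on 16 of 16.

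HBEGF was likewise higher in chip than in Transwell cultures after either exposure, at unequal nominal doses. The values after ZnO were 7.15, 6.72, 7.11 and 6.66 in the chip, against 4.16, 4.26, 4.05 and 3.93 on Transwell, a log2 difference of 2.81 ± 0.18 or 7.01-fold (limma, adjusted p = 1.46e-12). After TiO2 they were 6.20, 6.10, 6.75 and 6.21 in the chip, against 4.35, 4.17 and 4.58 on Transwell, a difference of 1.95 ± 0.19 or 3.86-fold (limma, adjusted p = 2.23e-08). The group means fell into a chip block of 6.05 to 6.91 and a Transwell block of 3.92 to 4.43. All neighbours within a block overlapped.

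TGFA encodes transforming growth factor alpha, a ligand of EGFR. Its log2 values ran from 3.52 to 4.38 in the chip (median 4.11), against 3.32 to 4.02 on Transwell (median 3.86), and the systems overlapped. The log2 difference of 0.30 ± 0.12 over both control media did not pass (limma, adjusted p = 0.055). It lay near the threshold and passed under 8 of the alternatives, among them arrays centred on their medians (0.35, adjusted p = 0.0311). Within single media the difference was 0.26 to 0.37 and did not pass, although the arrays of chip and Transwell did not overlap in TiO2-control medium or after ZnO. BTC encodes betacellulin, a ligand of EGFR and ERBB4. It was below the array median on all 31 arrays, at 1.79 to 2.52 in the chip and 1.90 to 2.58 on Transwell, so no level can be read from it.

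On chromosome 4 the ligand genes EPGN, EREG, AREG and BTC follow each other in RefSeq (GRCh38.p14), with 2 long non-coding genes between AREG and BTC. EPGN (epigen) was chosen as a neighbour after its values were seen and was below the array median on all arrays. EPGN averaged 2.28 in chip control cultures, against 2.29 in Transwell control cultures, and its difference of -0.01 ± 0.12 did not pass. The BTC difference was 0.04 ± 0.10. EREG at 1.66 was therefore the one of these 3 measured neighbours that passed, and the other two gave no signal above the array medians.

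EGFR encodes the receptor that binds all of these ligands. Its log2 values in TiO2-control medium were 9.20, 9.39, 9.42 and 9.46 in the chip, against 8.66, 8.72, 8.74 and 8.66 on Transwell. In ZnO-control medium they were 9.42, 9.66, 9.79 and 9.50 in the chip, against 8.57, 8.62, 8.40 and 8.43 on Transwell. The arrays of the systems did not overlap. The log2 difference was 0.88 ± 0.07 over both control media, 0.67 ± 0.10 in TiO2-control and 1.09 ± 0.10 in ZnO-control (limma, adjusted p = 7.44e-11, 1.2e-05 and 2.38e-09). The difference between those 2 values, 0.42 ± 0.14, did not pass (limma, adjusted p = 0.12), in a comparison where 2.74% of all genes, or 613, passed. Without both arrays that stood apart it was 0.44 (limma, adjusted p = 0.098), and 894 genes passed.

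The EGFR difference had its smallest value after TiO2, and its change from TiO2-control medium (-0.31 ± 0.15) did not pass a test of its own (limma, adjusted p = 0.898). Values after TiO2 were 9.42, 9.16, 9.15 and 9.17 in the chip, against 9.03, 8.80 and 8.76 on Transwell. The lowest chip value exceeded the highest Transwell value by a small margin, and the difference of 0.36 ± 0.11 passed (limma, adjusted p = 0.0197). That call was lost without chip TiO2 replicate 1 (0.30, adjusted p = 0.0787), without Transwell TiO2 replicate 2 (0.33, adjusted p = 0.0875) and without Transwell TiO2 replicate 3 (0.31, adjusted p = 0.105). After ZnO EGFR was 9.35, 9.47, 9.56 and 9.37 in the chip, against 8.49, 8.57, 8.61 and 8.26 on Transwell, a difference of 0.96 ± 0.10 with no overlap (limma, adjusted p = 1.94e-08). Transwell groups were ordered TiO2 (8.86 ± 0.14), TiO2-control (8.69 ± 0.04), ZnO-control (8.50 ± 0.11) and ZnO (8.48 ± 0.16, SD), and of these neighbours the last pair overlapped.

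ERBB3 encodes a receptor for neuregulins with little kinase activity of its own, which signals as a partner of other ErbB receptors. Unlike EGFR, its group means were lower in the chip than on Transwell in every medium. In TiO2-control medium ERBB3 was 8.96, 9.19, 9.30 and 8.98 in the chip, against 9.23, 9.60, 9.39 and 9.54 on Transwell. After TiO2 it was 9.08, 9.07, 9.14 and 8.77 in the chip, against 9.53, 9.46 and 9.43 on Transwell. The control groups overlapped and the TiO2 groups did not. The differences of -0.33 ± 0.12 and -0.46 ± 0.13 passed (limma, adjusted p = 0.0419 and 0.0115). The TiO2-control call was lost under 8 alternatives, including the fit without both arrays that stood apart (-0.29, adjusted p = 0.0912) and arrays centred on their medians (-0.26, adjusted p = 0.122). The call after TiO2 was lost without Transwell TiO2 replicate 1 (-0.43, adjusted p = 0.0534).

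In the ZnO set the ERBB3 groups lay close together. It averaged 9.13 ± 0.26 in chip ZnO-control and 9.16 ± 0.08 in Transwell ZnO-control cultures (SD, n = 4 each), and 8.94 ± 0.11 in chip ZnO and 9.17 ± 0.13 in Transwell ZnO cultures. The differences of -0.03 ± 0.12 and -0.23 ± 0.12 did not pass (limma, adjusted p = 0.901 and 0.157), nor did -0.18 ± 0.08 over both control media (limma, adjusted p = 0.102). The last of these passed under 1 of the alternatives (limma, adjusted p = 0.0169). Ordered by mean, all neighbouring groups overlapped.

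**Figure D2:**
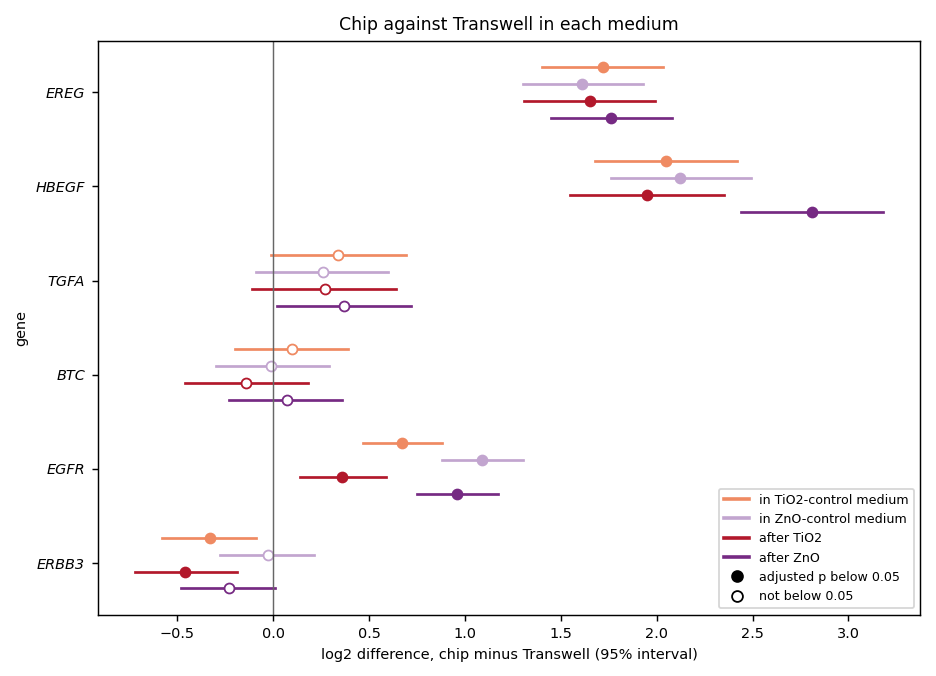
Log2 difference, chip minus Transwell, for each member in TiO2-control medium, in ZnO-control medium, after TiO2 and after ZnO. Lines are 95% intervals from limma and filled points have an adjusted p below 0.05. HBEGF lies between 1.95 and 2.81 and EREG between 1.61 and 1.76 in all 4 media, and EGFR lies between 0.36 and 1.09. The ERBB3 estimates lie between -0.46 and -0.03, and their intervals reach past 0 in ZnO-control medium and after ZnO.

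Counted by medium, 3 of 6 members passed as higher in TiO2-control, in ZnO-control, after TiO2 and after ZnO, and these were EREG, HBEGF and EGFR each time. ERBB3 was the 1 member that passed as lower, in TiO2-control and after TiO2. Without both arrays that stood apart the TiO2-control differences were 1.89 for EREG, 2.03 for HBEGF and 0.65 for EGFR, and those after TiO2 were 1.64, 1.98 and 0.38 in the same order. All 6 passed, as did ERBB3 after TiO2 at -0.38 (limma, adjusted p = 0.0459). The background was 9.42% of all genes higher and 13.5% lower (22.9% in all) in TiO2-control medium, and 12.3% higher and 14.9% lower (27.2%) in ZnO-control medium. It was 7.92% higher and 10.2% lower (18.2%) after TiO2, and 13.3% higher and 16.5% lower (29.8%) after ZnO.

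HBEGF rose after ZnO in the chip, and the other 5 members did not pass. HBEGF was 7.15, 6.72, 7.11 and 6.66 in chip ZnO cultures, against 5.48, 6.47, 6.16 and 6.08 in chip ZnO-control cultures. The groups did not overlap, and one control array was well below the rest. The log2 difference was 0.86 ± 0.18 with a 95% interval of 0.49 to 1.23, or 1.82-fold (limma, adjusted p = 0.0313). HBEGF was 1 of 61 genes that passed here, 0.272% of all genes, of which 53 (0.237%) were higher. The call was lost without chip ZnO replicate 1 (0.78, adjusted p = 0.0727) or 3 (0.79, adjusted p = 0.0947), and without chip ZnO-control replicate 1 (0.67, adjusted p = 0.154) or 3 (0.90, adjusted p = 0.0858). It was also lost with array weights (0.85, adjusted p = 0.0983) and with chip arrays alone in the fit (0.86, adjusted p = 0.306).

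On Transwell HBEGF was 4.16, 4.26, 4.05 and 3.93 after ZnO, against 3.90, 3.75, 3.99 and 4.06 in ZnO-control cultures, and the groups overlapped. The difference of 0.18 ± 0.18 did not pass and had a 95% interval of -0.19 to 0.54. The ZnO response of HBEGF in the chip exceeded that on Transwell by 0.69 ± 0.25, and this test of the difference did not pass either (limma, adjusted p = 0.785, unadjusted p = 0.0114). Of all genes 0.00447% passed that test. The response is therefore not shown to differ between the systems, and the nominal doses were 80 µg/mL in the chip and 10 µg/mL on Transwell.

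For the other members the ZnO differences in the chip were 0.26 ± 0.17 for TGFA, 0.15 ± 0.14 for BTC, 0.01 ± 0.15 for EREG, -0.15 ± 0.10 for EGFR and -0.19 ± 0.12 for ERBB3. None of these 5 passed (limma, adjusted p of 0.663 or more). The interval for EREG, -0.30 to 0.33, and that for EGFR, -0.36 to 0.05, bound the changes that these arrays could have missed. On Transwell the members lay between -0.14 (EREG) and 0.18 (HBEGF) after ZnO, and 0 of 6 passed. There 0% of all genes passed with limma, and 835 genes had an unadjusted p below 0.05.

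TiO2 gave 0 member calls in either system. In the chip the differences ran from -0.19 ± 0.14 for BTC to -0.06 ± 0.15 for EREG, with HBEGF at -0.17 ± 0.18 and EGFR at -0.14 ± 0.10. The share of all genes that passed was 0%, and 1997 genes had an unadjusted p below 0.05. Without both arrays that stood apart 73 genes passed and the members still gave 0 calls. Those arrays had been picked because they ran against this same contrast, so a higher count without them follows in part from that choice. The members then lay between -0.25 (EREG) and -0.05 (ERBB3). On Transwell, where 0% of all genes passed and 591 genes had an unadjusted p below 0.05, EGFR was 9.03, 8.80 and 8.76 after TiO2, against 8.66, 8.72, 8.74 and 8.66 in TiO2-control cultures. These groups did not overlap, but the difference of 0.17 ± 0.11 did not pass (limma, adjusted p = 1). In the test of the TiO2 response between chip and Transwell, where EGFR stood at -0.31 ± 0.15, 0 of 6 members and 0% of all genes passed with limma, and 1215 genes had an unadjusted p below 0.05.

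**Figure D3:**
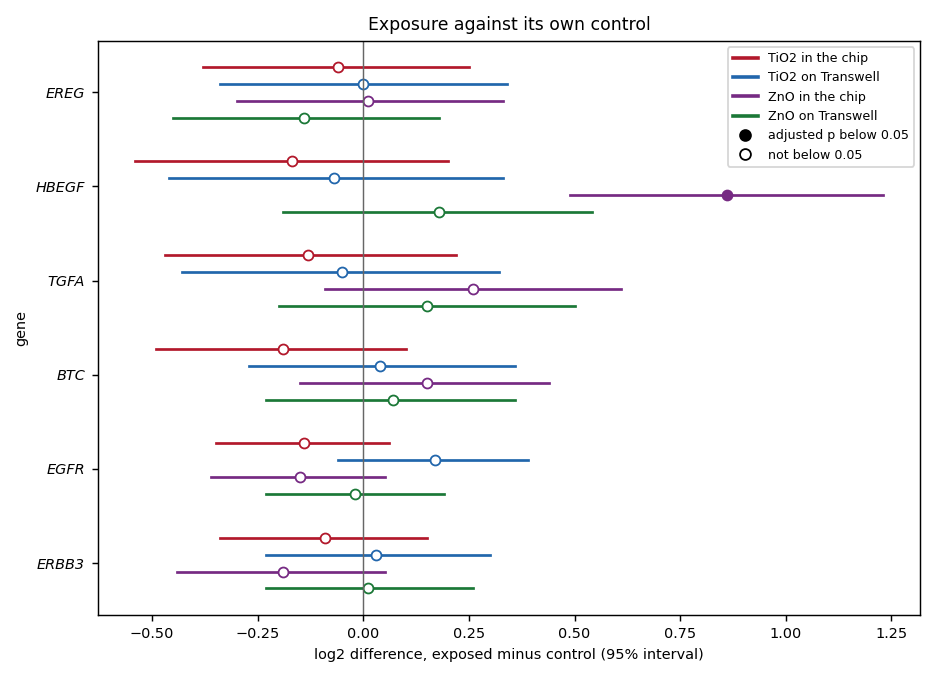
Log2 difference, exposed minus its own control, for each member after TiO2 or ZnO in the chip and on Transwell. Lines are 95% intervals from limma and the filled point has an adjusted p below 0.05. HBEGF after ZnO in the chip, at 0.86, is the one filled point, and the other values lie between -0.19 and 0.26.

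The 2 control media, which contained no metal, were also set against each other. In the chip the log2 difference, ZnO-control minus TiO2-control, was -0.38 ± 0.15 for EREG, -0.44 ± 0.18 for HBEGF and 0.23 ± 0.10 for EGFR. None of the 6 members passed (limma, adjusted p of 0.39 or more), and 0.058% of all genes did. EREG depended on the TiO2-control array that stood apart. Without both such arrays its difference was -0.56 and passed (limma, adjusted p = 0.0388), and 388 genes passed, against 13 with all arrays. Those arrays had been picked because they stood apart, and the control one held the lowest EREG value of its group. More calls without them may therefore follow in part from that choice. On Transwell 6.64% of all genes passed, and 0 of 6 members did. HBEGF came nearest there, at -0.51 ± 0.18 with no overlap between the media (limma, adjusted p = 0.0875), and it passed in a fit of Transwell arrays alone (-0.51, adjusted p = 0.0202). Each nanomaterial set had its own control, so material set and medium cannot be told apart in these values.

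Genes around the receptors were counted from 5 lists in the comparison of chip with Transwell over both control media, where 33.5% of all genes passed. Of the other ligands and ERBB4, 0 of 7 passed. EGF averaged 4.43 in chip and 4.65 in Transwell control cultures, NRG2 and NRG3, 2 neuregulins, differed by 0.07 and -0.13, and ERBB4, a neuregulin receptor, by 0.09. EPGN, NRG1, NRG2 and NRG3 were below the array median on all 31 arrays. Of 6 genes of ligand shedding 3 were higher and 1 was lower, with a median difference of 0.25. The higher ones were ADAM17 (0.42 ± 0.10), the protease that releases EREG, HBEGF and TGFA, and RHBDF1 (1.07 ± 0.11) and RHBDF2 (0.85 ± 0.14), the iRhoms that carry ADAM17 to the cell surface. FRMD8, which stabilises the iRhom-ADAM17 complex, was lower (-0.39 ± 0.15; limma, adjusted p = 0.0457).

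Of 12 measured inhibitors and turnover genes 4 were higher and 4 lower, with a median of 0.13. ERRFI1, an inducible inhibitor of the EGFR kinase, averaged 10.26 in chip and 8.28 in Transwell control cultures, a difference of 1.98 ± 0.09 (limma, adjusted p = 3.23e-16). SOCS3, an inhibitor of cytokine receptor signalling, was higher by 1.43 ± 0.15. LRIG1, a transmembrane protein that lowers EGFR levels, changed by -0.71 ± 0.07, and SOCS5, which also promotes EGFR turnover, by -0.77 ± 0.10. Of 12 measured adaptors and Ras-ERK core genes 3 were higher and 2 lower, with a median of -0.01. Those with the smallest p were the ERK kinase MAP2K1 (0.80 ± 0.08), the adaptors GAB2 (0.89 ± 0.11) and SHC1 (0.40 ± 0.08), and the Ras exchange factor SOS1 (-0.43 ± 0.10). The adaptor list gave 1 lower call in place of 2 without both arrays that stood apart.

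ERK feedback and output genes gave the most calls of the 5 lists, 12 of 16 higher and 0 lower, with a median of 0.74 against 0 over all genes. The list was chosen with earlier results of these data known, so its counts are descriptions. All 16 of its genes were above the array median on all 31 arrays, whereas the shares over all genes include dim genes. DUSP5, a phosphatase of nuclear ERK, averaged 8.23 in chip and 5.58 in Transwell control cultures, a difference of 2.65 ± 0.11 (limma, adjusted p = 1.29e-16). DUSP6, its cytoplasmic counterpart, differed by 1.58 ± 0.11, the early response gene IER3 by 1.48 ± 0.10 and the transcription factor EGR1 by 1.66 ± 0.12. MYC (-0.25 ± 0.10), CCND1 (-0.13 ± 0.09), SPRY1 (-0.02 ± 0.09) and SPRY2 (0.05 ± 0.12) did not pass, and these 4 were named after their values were seen. The list gave 9 higher and 1 lower in TiO2-control medium, where 22.9% of all genes passed, and 12 and 0 in ZnO-control, where 27.2% did. It gave 10 higher and 0 lower after TiO2 (18.2% of all genes) and 11 and 2 after ZnO (29.8%). Without both arrays that stood apart it gave 12 higher and 1 lower over both control media.

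**Figure D4:**
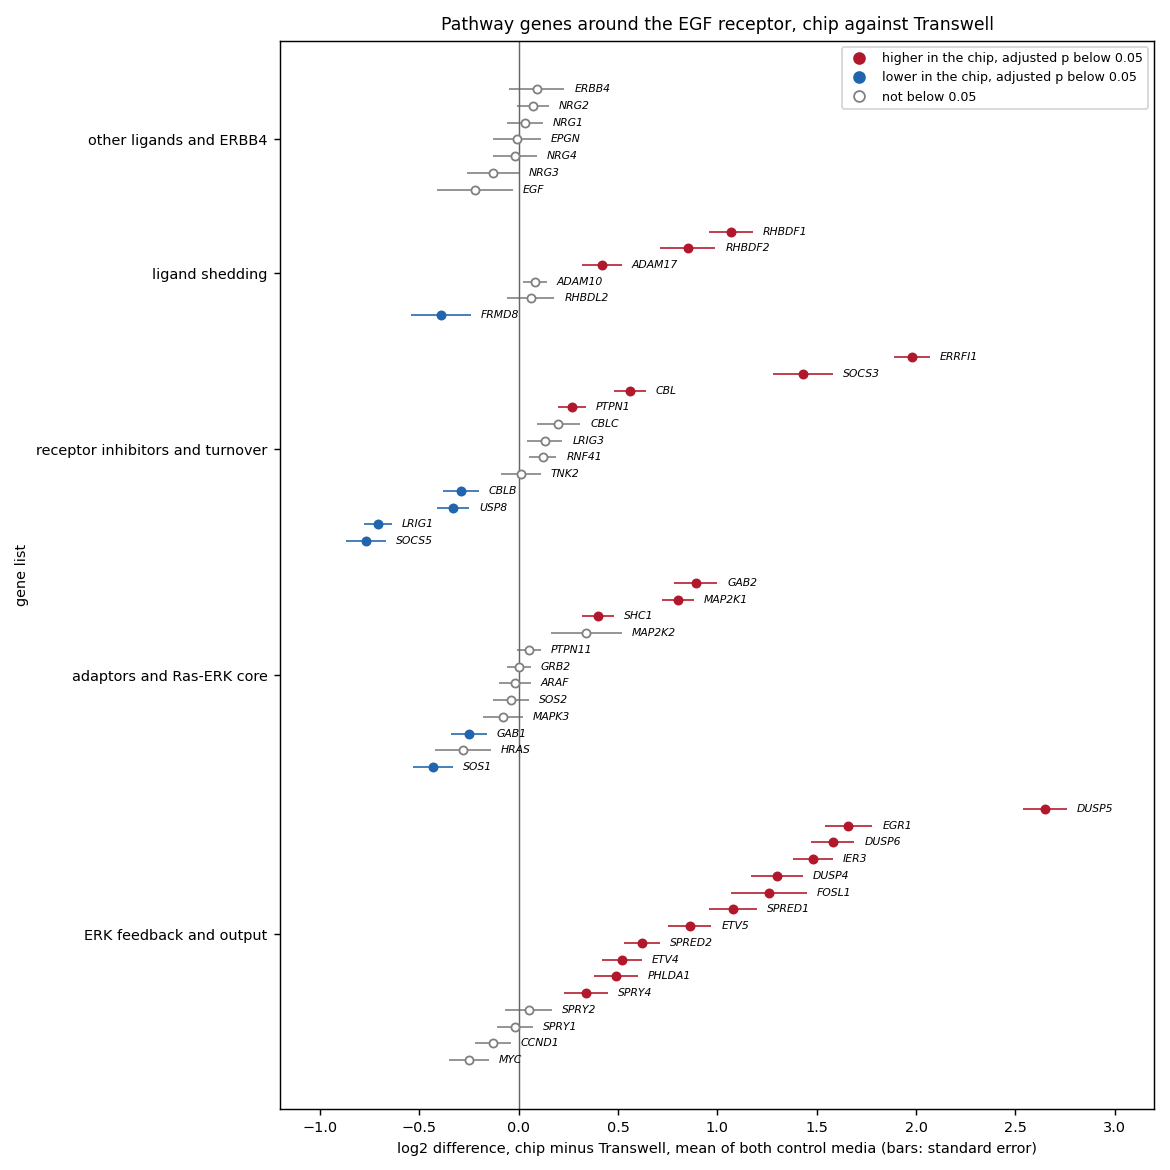
Log2 difference, chip minus Transwell, mean of both control media, for each measured gene of 5 lists around the EGF receptor. Points are limma estimates and bars standard errors, and red and blue mark higher and lower values with an adjusted p below 0.05. The ERK feedback and output genes reach from -0.25 (MYC) to 2.65 (DUSP5), with 12 of 16 marked as higher.

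After ZnO in the chip 0 members of each of these 5 lists passed. With 0.272% of all genes called, these counts do not set the lists apart from other genes. Among the ERK output genes FOSL1, an AP-1 subunit, averaged 8.82 in chip ZnO and 7.71 in chip ZnO-control cultures, a difference of 1.11 ± 0.27 (limma, adjusted p = 0.0807), and EGR1 differed by 0.45 ± 0.17 (limma, adjusted p = 0.326). GAB2 differed by 0.47 ± 0.15 and ERRFI1 by 0.27 ± 0.12. Others went the other way, among them SPRY1 of the ERK output genes (-0.34 ± 0.13) and LRIG3 of the inhibitors (-0.33 ± 0.13). LRIG3 had the smallest p of its list. List medians were 0.13 for ERK output genes and 0.07 for inhibitors and turnover genes, against 0 over all genes.

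Differentiation markers moved with the culture system too. Of 12 Caco-2 identity markers 4 were higher and 5 lower in the chip over both control media, with a median of 0.03, where 14.6% of all genes were higher and 18.9% lower. The enterocyte genes FABP2, a fatty acid binding protein, and SI, sucrase-isomaltase, were lower, with log2 differences of -4.25 ± 0.17 and -3.36 ± 0.33, and VIL1 (villin) differed by -0.75 ± 0.07. FABP2 averaged 2.13 in chip control cultures, below the array medians, so its difference is a lower bound in size. The transcription factor CDX2 (-0.74 ± 0.10) and the intestinal phosphatase ALPI (-0.51 ± 0.19) were also lower. The keratins KRT19 (0.66 ± 0.08), KRT18 (0.56 ± 0.08), KRT8 (0.91 ± 0.17) and KRT20 (0.96 ± 0.22), the last one a differentiation marker, were higher. CDH1 (0.12 ± 0.05), EPCAM (0.04 ± 0.06) and CDX1 (0.03 ± 0.14) did not pass. The mean of the 12 markers per array was 7.81 to 8.48 in the chip, against 8.54 to 8.75 on Transwell, and FABP2 and SI had the largest differences of the 12.

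Of 11 markers of other cell types 1 was higher and 2 lower, with a median of 0.04. CD68, a macrophage marker, averaged 11.38 in chip and 10.74 in Transwell control cultures, a difference of 0.64 ± 0.10 (limma, adjusted p = 6.05e-06). The fibroblast marker LUM differed by -0.98 ± 0.18 (limma, adjusted p = 7.7e-05) and the T cell marker CD3E, which was below the array median on all arrays, by -0.35 ± 0.13. The mean of the 11 per array was 3.96 to 4.57 in the chip, against 4.08 to 4.38 on Transwell. The part of either marker set in the differences of EREG, HBEGF and EGFR was not tested.

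The genes whose pattern over the 31 arrays was most like each member were taken from 9563 other genes with a mean above 5. EREG was followed most closely by UGCG, EMP1 and SDC4 (Pearson r of 0.97, 0.96 and 0.96), and within the 16 chip arrays these r were 0.69, 0.51 and 0.49. HBEGF was followed by TNFRSF12A, IDS and MCU (r of 0.97 each, and 0.60, 0.57 and 0.52 within the chip). EGFR was followed by KIF1B, ITGB4 and SLC44A2 (r of 0.96 each, and 0.64, 0.80 and 0.54 within the chip). The pooled values mainly span the step between chip and Transwell. Within the Transwell arrays the r were 0.84, 0.86 and 0.81 for EREG, 0.85, 0.57 and 0.83 for HBEGF, and 0.76, 0.66 and 0.83 for EGFR. On deviations from group means the r of these genes with their members ran from 0.25 (KIF1B with EGFR) to 0.72 (UGCG with EREG). ERBB3 had FOXN3, DHRS11 and ZNF827 at 0.88, 0.87 and 0.85, and FOXN3 reached 0.74 within the chip and 0.88 within the 15 Transwell arrays. For TGFA the closest was MTMR3 at 0.74, and for BTC ACTB at 0.49. The arrays share their normalisation, and these correlations are descriptions.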

How the data were processed

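Total RNA of Caco-2 cultures was hybridised to Affymetrix whole-transcript arrays, per the labels' protocols. The deposited values were log2 expression normalised by the authors with RMA, per the submitters' processing notes (no version is given in the sources used here). RMA equalises array distributions, so a shift shared by all genes could be lost. Genes were named from the platform annotation: of 53617 probe sets 23871 named 1 gene, and the brightest row per gene left 22395 genes, so levels are not compared between genes. The 8 groups (31 arrays) were fitted together in limma 3.58.1 (R 4.3.3), with Benjamini-Hochberg adjustment over all genes per comparison, after a test on simulated data. Figures were drawn with matplotlib 3.10.9 in Python 3.11.15. The number of arrays limits the precision. The members and lists were chosen with earlier results of these data known. Named genes were all members, up to 4 genes per list with the smallest p, and the 3 genes most like each member. For TGFA and BTC only the closest gene was named. Other markers and list genes, such as EPCAM, KRT20, PTPRC and NRG1, were named after their values were seen. The alternatives were other priors, array weights, centring, a filter on dim genes, fits within a system, a replicate block and leaving out arrays. Proteins were not used here.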

Additional observations from a re-analysis of the deposited data

Results flagged for a closer look

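In 4 of 42 groups of 4 arrays the highest or the lowest value of a member lay far from the other three by Dixon's test, which chance alone gives in about 1 of 20 groups. EGFR in chip TiO2 replicate 1 was 9.42, above the other chip TiO2 arrays at 9.15 to 9.17. EREG in chip TiO2-control replicate 4 was 9.06, below the rest of its group at 9.73 to 9.84, and this array also stood apart from its label over other genes. TGFA in Transwell TiO2-control replicate 1 was 3.38, below the rest at 3.95 to 4.02. BTC in Transwell TiO2-control replicate 2 was 2.58, while BTC was below the array median on every array.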

How the results depend on the processing

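Across 40 settings the called member differences changed sign in 0 of 703 values, and those not called in 64 of 2581. Of these 2581 values 14 became called. EREG, HBEGF and EGFR kept their chip-against-Transwell calls in both control media and after ZnO throughout, and EREG and HBEGF also after TiO2. Leaving out 1 array at a time gave 3 to 4 member calls over both control media, in TiO2-control and after TiO2, 3 in ZnO-control and after ZnO, 0 to 1 for ZnO in the chip and for the control media in the chip, and 0 in the other comparisons. HBEGF after ZnO in the chip then ranged from 0.67 to 1.00. Its call, and so the count, became 0 with array weights and with chip arrays alone in the fit. The control media in the chip gave 1 call (EREG) without both replicate 4 arrays or without the control one alone. Those on Transwell gave 1 call (HBEGF) with array weights, with Transwell arrays alone, and with 11197 brighter genes. The cause of these changes was not tested. Same-numbered arrays deviated together in 5 of 38 pairs (r over 0.1, range -0.23 to 0.18). In 18 of 76 cases an array correlated best with its own number in the other group. These were 4 of 8 for the control media in the chip and 0 of 8 for ZnO on Transwell. The main fit did not pair arrays by number, and this check cannot show that same-numbered arrays shared no batch. With the number as a replicate block TGFA passed over both control media (0.30, adjusted p = 0.0486), which made 4 calls, the HBEGF response to ZnO in the chip kept its call (adjusted p = 0.0452), and genes called for that response were 48, against 61. No fit within 1 system exists for chip against Transwell. Dim genes such as BTC and TGFA are limited by their signal.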
